A study of Mus musculus with 16 samples.

Results

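The 46 genes described here encode the machinery that copies DNA and divides cells, together with a few regulators of entry into the cycle. They were taken from a list of named genes, and a gene was kept when it had a count of at least 10 in 4 or more of the 16 libraries. All 46 listed genes passed that rule, out of 16934 genes in the count table, and the gene closest to the limit reached a count of 10 in 8 libraries. Of them, 12 act in DNA replication, 28 in mitosis, 4 in control of the G1 phase, and 2 (Lmnb1 and Hmgb2) in the structure of the nucleus. All 46 also passed the filter on low counts and were tested.

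Before a cell divides, the MCM helicase is loaded onto origins of replication in G1 by Cdt1, a step that geminin blocks once DNA synthesis has begun. Cyclin-dependent kinases then drive the S phase, and cyclin B with Cdk1 drives entry into mitosis, in which chromosomes are condensed, attached to the spindle and parted. Replication genes are mostly switched on by E2F factors at the end of G1, and mitotic genes later, through promoter elements bound by the MuvB complexes. Neurons leave the cycle for good before they mature, whereas glial precursors, astrocytes and microglia can go on dividing.

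The libraries came from primary cortical neurons of C57BL/6 mouse embryos of day 15 to 16, cultured for 14 days. Neurons received 0.1 µM of Atto488-labelled fibrils of α-synuclein, the protein of Lewy bodies, over 16 h, or were left untreated. They were then co-cultured for 6 h with microglia, the macrophages of the brain, or were not. This gave 4 groups of 4 libraries: fibrils with microglia, untreated with microglia, fibrils alone and untreated alone. Libraries were primed at the poly(A) tail (QuantSeq), so counts come from transcript 3′ ends and are not per length. All 4 groups share the strain, the 14 days of culture and the medium. The labels say neither how neurons were parted from microglia nor whether each library of a group had its own culture or animal, and p-values therefore reflect only how these libraries vary, and that variation may be technical.

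Total counts were 6511516 to 13986374 per library, and 10817 to 13079 genes were detected. The cultures were not neurons alone by their transcripts. Markers of oligodendrocyte precursors, the dividing glia that give rise to myelinating cells, summed to 3713 to 9066 CPM (counts scaled to library size) in the co-cultures and to 873 to 2679 CPM in neurons alone. That list also holds Gpr17, Bcas1 and Cnp, which are not confined to dividing precursors. Astrocyte markers summed to 897 to 6284 CPM in the co-cultures and to 2129 to 7380 CPM in neurons alone. Neural progenitor markers summed to 712 to 1787 CPM in the co-cultures, against 259 to 3793 CPM in neurons alone. Neuronal markers summed to 891 to 2506 CPM in the co-cultures and to 1028 to 6386 CPM in neurons alone. Microglia markers reached 1308 and 618 CPM in replicate 1 of the co-cultures with and without fibrils, 0.229 to 55.3 CPM in the remaining 6 of the co-cultures and at most 25.4 CPM in neurons alone. Vascular and fibroblast markers summed to 23.6 CPM or less in every library.

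In co-cultures with microglia, set against neurons kept alone, 1 of 12 replication genes, 5 of 28 mitosis genes and both nuclear structure genes rose past the test, and the p21 gene Cdkn1a, an inhibitor of the cell cycle, fell. Averaged over fibril state, all 12 replication genes and all 28 mitosis genes had a higher fitted level in co-culture. The median log2 change was 1.66 for replication genes and 1.62 for mitosis genes, against -0.03 over the 13139 genes tested. By the edgeR quasi-likelihood test, adjusted over all genes by the Benjamini-Hochberg method, 9 of the 46 were called at an adjusted p under 0.05, 8 higher and 1 lower. Over all genes 288, or 2.19%, were called, 1.22% higher and 0.974% lower. The called genes were Mcm7 of the replication group, Mki67, Aspm, Cenpf, Ncapd2 and Birc5 of the mitosis group, both nuclear structure genes and Cdkn1a. At an unadjusted p under 0.05 stood 29 of the 46 (63%), against 16.5% of all genes. In bulk libraries more dividing cells and more RNA of these genes per cell cannot be told apart, nor fewer cells and less RNA.

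**Figure D1:**
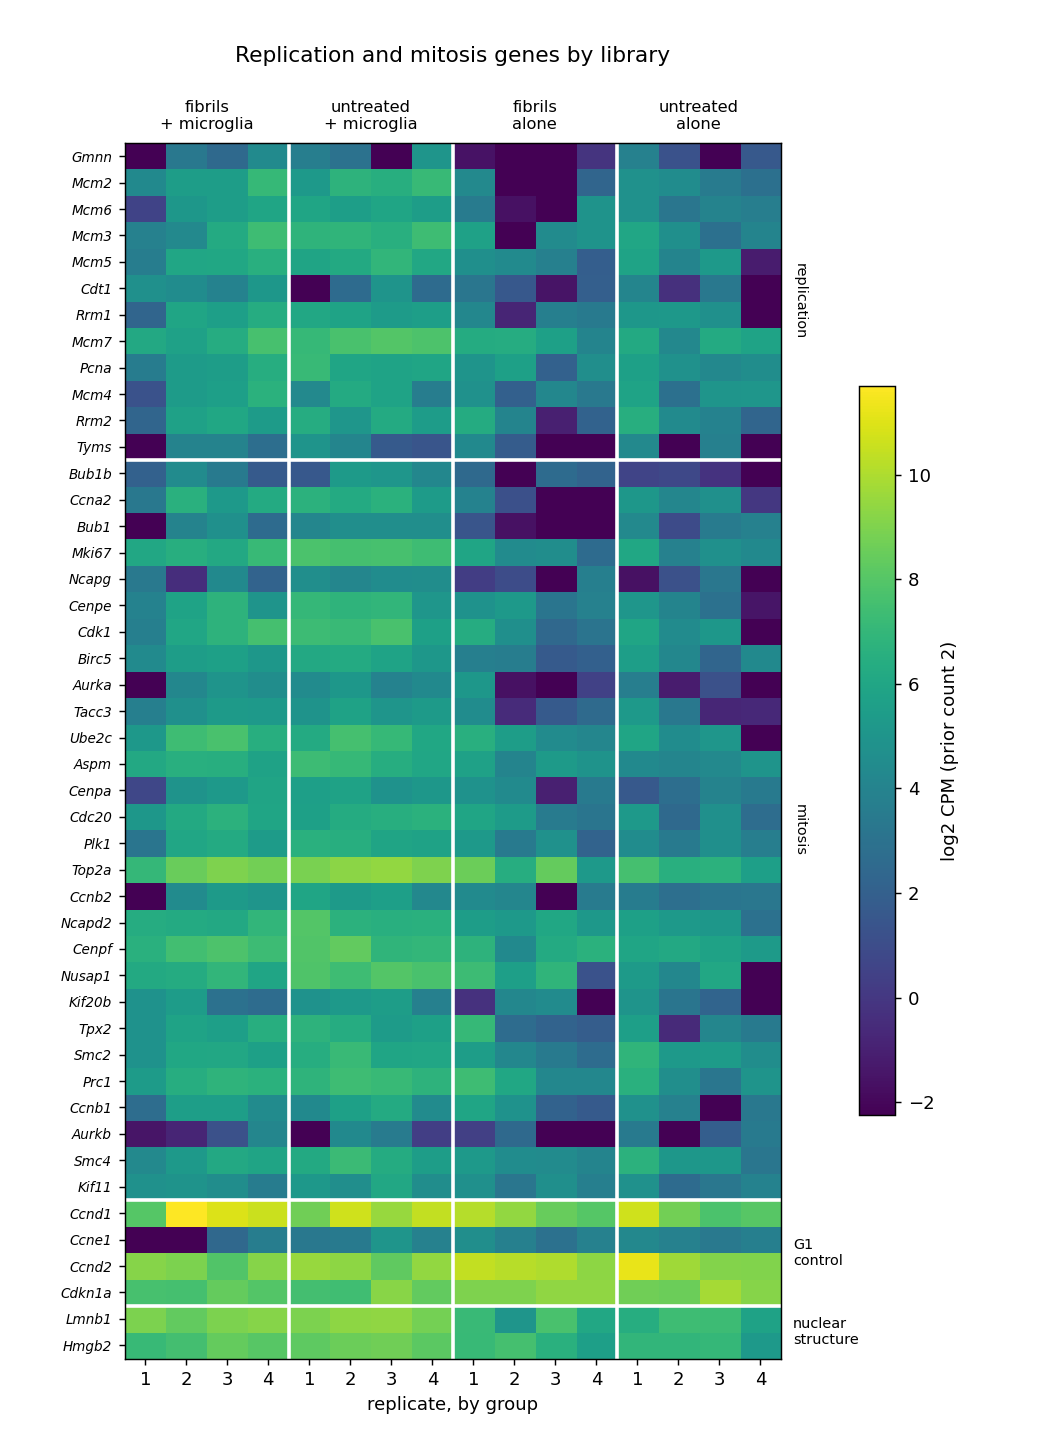
Level of each of the 46 genes (rows, by group of function and then by log2 change) in each of the 16 libraries (columns, by group and replicate), as log2 CPM with a prior count of 2. Replication and mitosis rows are brighter in most co-culture columns, with replicate 1 of the fibril-loaded co-cultures as a dark column and replicate 1 of both groups of neurons alone as bright ones.

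The heat map of levels by library shows how far single libraries of a group lay apart. Of the 42 replication, mitosis and nuclear structure genes, 32 were lowest within the fibril-loaded co-cultures in replicate 1, the library with the most microglia markers. That library also had the lowest total count of all (6511516). Within its group it had the fewest genes detected (10875) and the highest share of Rn45s, a ribosomal RNA precursor (18.5%). What set it apart was not tested. Of the same 42 genes, 30 were highest in replicate 1 within fibril-loaded neurons alone and 31 in replicate 1 within untreated neurons alone, where 21 were lowest in replicate 4. Of the 736 gene-by-library entries of the 46 genes 43 were 0 (5.84%, against 14.2% over all genes tested), and 20 of the genes had a 0 in at least 1 library.

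The promoters of the mitosis genes mostly carried the CHR element, and those of the replication genes mostly did not. RefSeq promoters (build GRCm38.p6, from 250 bases before to 50 bases after the start site) were at hand for 37 of the 46 genes, with 40 promoters in all. Both strands were searched for the CHR core (TTTGAA), the CCAAT box (CCAAT) and E2F sites (TTTCCCGC, TTTCGCGC, TTTGCCGC or TTTGGCGC). CHR and CCAAT elements together are the layout known for genes of the G2 and M phases. The promoters of the 3 mitosis genes and the 3 replication genes with the smallest p are shown to set the layouts side by side, 5′ to 3′ along each gene, with every match on either strand in capitals. Of a gene with several promoters the one with the most matches is shown, so the examples are not typical by design. Another promoter of Mcm7, not shown, held a CCAAT match at -47 and no E2F match. In Mcm7 an E2F match and a CCAAT box overlap in the run TTTCGCGCCAAT, and in Mcm5 a pair of E2F matches overlap in TTTCGCGCCAAA.
Mki67: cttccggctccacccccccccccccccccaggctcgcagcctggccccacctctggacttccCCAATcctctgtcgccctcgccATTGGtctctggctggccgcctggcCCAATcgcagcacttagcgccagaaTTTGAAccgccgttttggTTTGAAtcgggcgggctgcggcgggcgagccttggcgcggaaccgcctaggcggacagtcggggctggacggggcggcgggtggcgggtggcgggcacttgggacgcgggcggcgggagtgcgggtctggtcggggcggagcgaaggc
Aspm: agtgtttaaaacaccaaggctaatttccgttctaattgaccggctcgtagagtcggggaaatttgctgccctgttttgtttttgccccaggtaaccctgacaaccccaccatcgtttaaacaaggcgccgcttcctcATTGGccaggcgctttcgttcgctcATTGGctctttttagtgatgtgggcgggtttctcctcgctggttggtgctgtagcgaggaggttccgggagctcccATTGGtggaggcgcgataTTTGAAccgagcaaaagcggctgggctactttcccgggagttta
Cenpf: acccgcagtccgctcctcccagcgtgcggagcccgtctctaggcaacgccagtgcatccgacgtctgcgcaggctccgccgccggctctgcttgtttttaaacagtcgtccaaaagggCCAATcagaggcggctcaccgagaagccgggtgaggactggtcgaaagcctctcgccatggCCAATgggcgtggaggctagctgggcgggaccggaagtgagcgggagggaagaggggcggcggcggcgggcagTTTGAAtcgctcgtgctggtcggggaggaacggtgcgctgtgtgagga
Mcm7: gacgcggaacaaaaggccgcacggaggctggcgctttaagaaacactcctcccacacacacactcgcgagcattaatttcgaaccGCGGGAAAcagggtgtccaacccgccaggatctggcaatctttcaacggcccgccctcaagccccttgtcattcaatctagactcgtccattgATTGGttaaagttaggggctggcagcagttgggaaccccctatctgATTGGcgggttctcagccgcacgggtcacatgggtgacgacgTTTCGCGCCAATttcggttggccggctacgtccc
Mcm2: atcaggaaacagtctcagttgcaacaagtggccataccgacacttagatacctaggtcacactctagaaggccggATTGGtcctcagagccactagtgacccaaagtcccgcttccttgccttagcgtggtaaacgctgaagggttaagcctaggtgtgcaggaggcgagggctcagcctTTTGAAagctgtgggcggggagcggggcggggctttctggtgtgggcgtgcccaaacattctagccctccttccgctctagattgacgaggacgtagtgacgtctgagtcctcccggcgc
Mcm5: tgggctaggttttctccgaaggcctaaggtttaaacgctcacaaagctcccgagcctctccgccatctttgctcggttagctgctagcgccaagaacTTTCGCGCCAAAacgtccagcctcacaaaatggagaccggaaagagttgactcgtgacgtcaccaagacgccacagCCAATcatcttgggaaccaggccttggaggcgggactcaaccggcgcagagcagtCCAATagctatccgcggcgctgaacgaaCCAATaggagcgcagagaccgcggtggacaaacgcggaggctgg

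These promoters lie at chr7:135716330-135716629 (minus strand, Mki67), chr1:139454523-139454822 (plus, Aspm), chr1:189688037-189688336 (minus, Cenpf), chr5:138171834-138172133 (minus, Mcm7), chr6:88898731-88899030 (minus, Mcm2) and chr8:75109259-75109558 (plus, Mcm5). Counted from the start site at 0, the CHR matches of Mki67 begin at -116 and -98, that of Aspm at 6 and that of Cenpf at 2. Among promoters of mitosis genes 19 of 25 (76.0%) held a CHR match and 18 of 25 (72.0%) both a CHR and a CCAAT match. A CHR match stood in 1 of 11 promoters of replication genes (9.09%), that of Mcm2, in 11.7% of promoters of genes tested and in 17.9% of all 32851 promoters. Both matches together stood in 4.71% of promoters of genes tested and in 6.95% of all promoters.

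CCAAT boxes were common in both groups, in 84.0% of mitosis and 81.8% of replication promoters. They stood in 37.7% of promoters of genes tested and in 37.4% of all promoters. E2F matches stood in 5 of 11 replication promoters (45.5%) and in 3 of 25 mitosis promoters (12%). The share was 3.81% in promoters of genes tested and 2.26% in all promoters. The median first base of the CHR matches in mitosis genes was at -18 and of the E2F matches in replication genes at -76.5. These are letter matches in one window and say nothing of which factor is bound.

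Among replication genes the helicase subunits Mcm2 to Mcm7 all had higher fitted levels in co-culture, and Mcm7 passed the test. Mcm7 had 72.7, 53.5, 81.9 and 200 CPM in fibril-loaded co-cultures and 136, 207, 254 and 221 CPM in untreated co-cultures, against 80.1, 82.2, 51.0 and 16.5 CPM in fibril-loaded and 74.2, 18.6, 77.8 and 56.0 CPM in untreated neurons alone. It rose by 1.34 ± 0.36 (SE) on the log2 scale (adjusted p = 0.0471). The untreated co-cultures and replicate 4 of the fibril-loaded ones stood above every library of neurons alone, and the other 3 fibril-loaded co-cultures lay within their range. The Mcm7 call held without replicate 1 or 2 of the fibril-loaded co-cultures, replicate 1 or 2 of fibril-loaded neurons alone or replicate 1 of untreated neurons alone, and was lost without any of the other 11 libraries (adjusted p 0.0519 to 0.108). With the replicate number as a block it was lost as well (log2 change 1.31, adjusted p = 0.0797). The log2 change stayed between 1.06 and 1.58 in every alternative run. The gene ends in an overlap with Cops6 (build GRCm38, Mcm7 at chr5:138164583-138172422, minus strand), and Cops6 had a log2 change of -0.04 ± 0.30 (adjusted p = 0.987).

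Mcm2 had the highest fitted change of the helicase subunits without passing. It had 20.7, 45.1, 44.9 and 136 CPM in fibril-loaded and 37.2, 110, 90.1 and 144 CPM in untreated co-cultures, against 19.9, 0, 0 and 4.70 CPM in fibril-loaded and 27.3, 22.6, 11.7 and 7.12 CPM in untreated neurons alone. The log2 change was 2.90 ± 0.87 (adjusted p = 0.0972). All 8 co-culture libraries lay above the median of neurons alone, and the groups overlapped through replicate 1 of the fibril-loaded co-cultures. Mcm3, Mcm5 and Mcm6 had log2 changes of 1.75 ± 0.78, 1.71 ± 0.65 and 1.77 ± 0.86, and Mcm4 of 1.02 ± 0.60 (adjusted p 0.183 to 0.407).

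Pcna, the sliding clamp of the replicative polymerases, had 12.1, 42.4, 45.3 and 85.1 CPM in fibril-loaded and 141, 62.3, 56.2 and 60.4 CPM in untreated co-cultures, against 31.3, 51.0, 3.97 and 25.0 CPM in fibril-loaded and 51.6, 27.6, 18.9 and 23.6 CPM in untreated neurons alone. Its log2 change of 1.06 ± 0.45 did not pass (adjusted p = 0.235). All 4 untreated co-cultures lay above every library of neurons alone, while 3 of the 4 fibril-loaded ones did not. Cdt1, the loading factor, and Gmnn, which encodes geminin, its inhibitor, were both low. Cdt1 ranged from 0 to 35.0 CPM in co-cultures (median 19.1) and from 0 to 16.9 CPM in neurons alone (median 3.28). Gmnn ranged from 0 to 32.0 CPM in co-cultures (median 8.92) and from 0 to 14.5 CPM in neurons alone (median 0.398). Their log2 changes of 1.66 ± 1.17 and 3.41 ± 1.56 did not pass (adjusted p = 0.525 and 0.273).

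The genes of nucleotide supply did not pass. Rrm1 and Rrm2, the subunits of ribonucleotide reductase, had log2 changes of 1.66 ± 0.82 and 0.79 ± 0.79, and Tyms, thymidylate synthase, of 0.69 ± 1.44 (adjusted p 0.323 to 0.908). Rrm1 had a median of 53.3 CPM in co-cultures and 15.8 CPM in neurons alone, Rrm2 of 48.3 CPM in co-cultures and 15.6 CPM in neurons alone, and Tyms of 11.1 CPM in co-cultures and 1.64 CPM in neurons alone. The ranges overlapped for each.

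**Figure D2:**
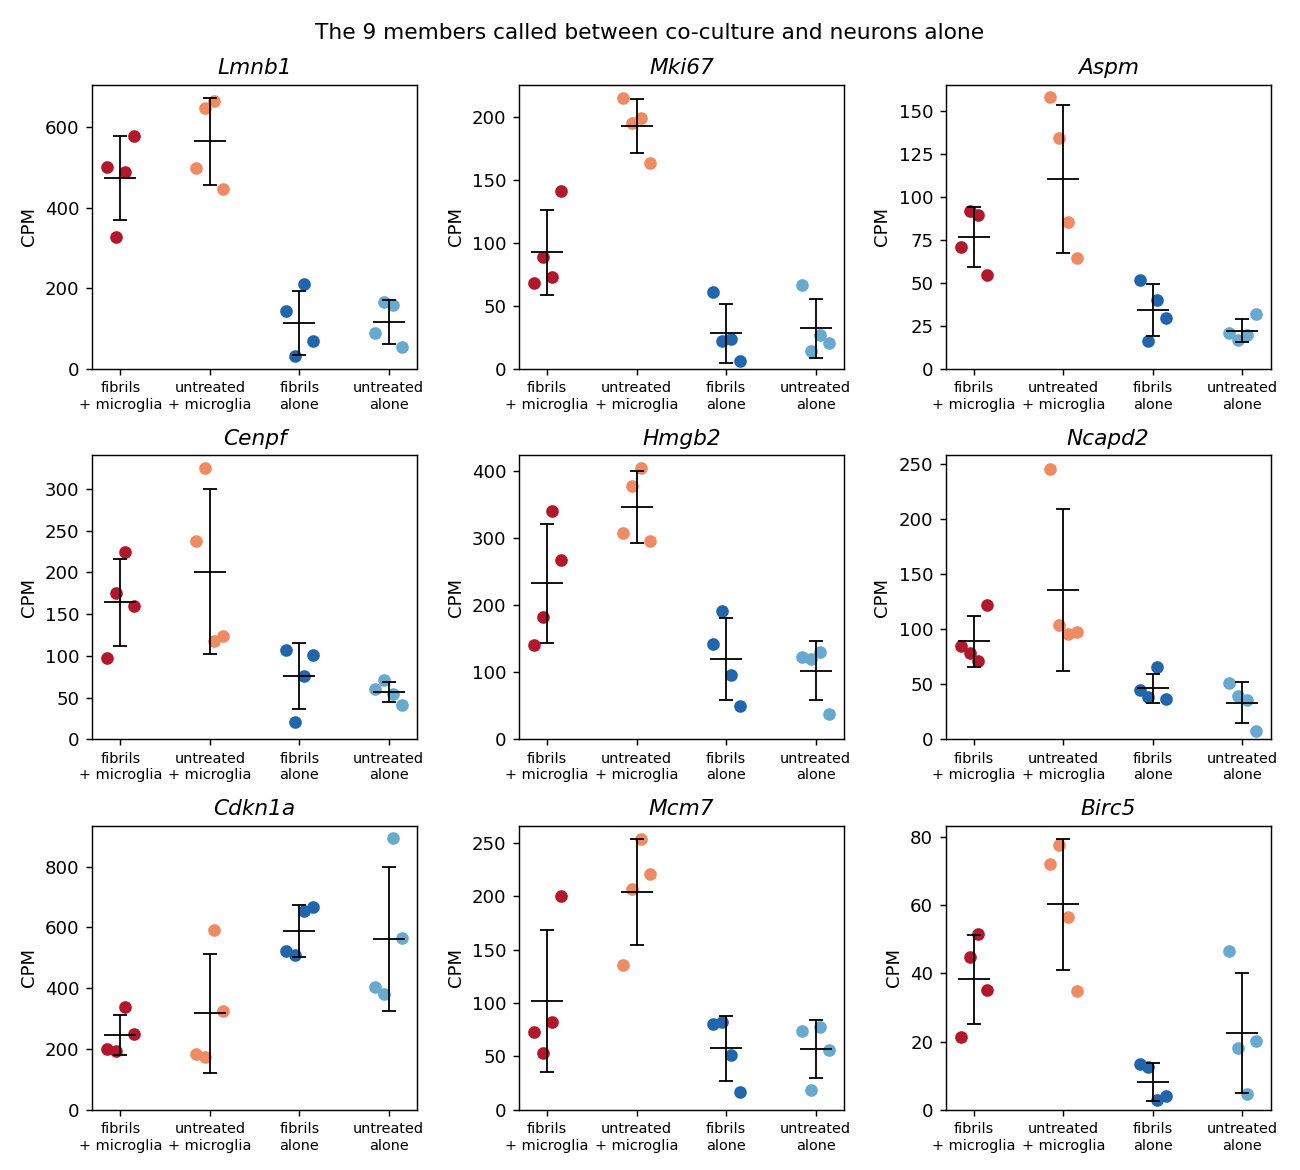
CPM of the 9 genes called between co-culture and neurons alone, by group (points, 4 libraries each; horizontal line, mean; bars, SD). Lmnb1, Mki67, Aspm and Ncapd2 show no overlap between co-culture libraries and libraries of neurons alone, and Cdkn1a is the one gene that is lower in co-culture.

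Mki67, which encodes the Ki-67 protein that coats mitotic chromosomes and marks cycling cells, was among the mitosis genes with the firmest rise. It had 68.1, 88.6, 72.6 and 141 CPM in fibril-loaded and 215, 195, 199 and 163 CPM in untreated co-cultures, against 61.2, 22.1, 23.8 and 5.85 CPM in fibril-loaded and 67, 14.4, 26.5 and 20.3 CPM in untreated neurons alone. It rose by 2.15 ± 0.39 on the log2 scale (adjusted p = 0.00448). All 8 co-culture libraries lay above all 8 libraries of neurons alone, as the plot of the called genes shows, with 68.1 against 67 CPM for the closest pair. Mki67, Aspm, Ncapd2 and Lmnb1 were the 4 of 46 genes with no overlap (8.7%), against 0.381% of all genes with every co-culture library above, and none of the 46 lay wholly below, against 0.221% of all genes.

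Aspm, a protein of the spindle poles needed for the divisions of neural progenitors, also separated the cultures. It had 70.7, 91.8, 89.8 and 54.4 CPM in fibril-loaded and 158, 135, 85.3 and 64.4 CPM in untreated co-cultures, against 52.0, 16.4, 39.9 and 29.6 CPM in fibril-loaded and 20.7, 16.9, 19.7 and 31.6 CPM in untreated neurons alone. It rose by 1.73 ± 0.31 on the log2 scale (adjusted p = 0.00448). The highest library of neurons alone, replicate 1 with fibrils, reached nearly the lowest co-culture library.

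The proteins that shape and condense chromosomes include topoisomerase II alpha (Top2a) and the condensin subunits Smc2, Smc4, Ncapd2 and Ncapg. Ncapd2 had 84.4, 78.2, 70.5 and 122 CPM in fibril-loaded and 245, 103, 95.1 and 96.9 CPM in untreated co-cultures, against 45.1, 38.5, 65.4 and 36.7 CPM in fibril-loaded and 51.2, 39.3, 35.3 and 7.41 CPM in untreated neurons alone. It rose by 1.48 ± 0.34 on the log2 scale (adjusted p = 0.0221). The groups did not overlap, but replicate 1 of the untreated co-cultures stood far above the rest, and without that library the log2 change was 1.25 and the call was lost (adjusted p = 0.0717).

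Top2a missed the threshold. It had 131, 358, 516 and 421 CPM in fibril-loaded and 480, 623, 682 and 509 CPM in untreated co-cultures, against 381, 86.4, 335 and 39.5 CPM in fibril-loaded and 191, 91.9, 103 and 48.7 CPM in untreated neurons alone, a log2 change of 1.58 ± 0.42 (adjusted p = 0.0545). Replicates 1 and 3 of fibril-loaded and replicate 1 of untreated neurons alone lay within the range of the co-cultures. Smc2, Smc4 and Ncapg had log2 changes of 1.06 ± 0.42, 0.91 ± 0.42 and 2.03 ± 1.24, none of them called.

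Among kinetochore and centromere genes Cenpf passed. Cenpf, a large protein of the outer kinetochore, had 97.8, 175, 224 and 159 CPM in fibril-loaded and 237, 325, 117 and 124 CPM in untreated co-cultures, against 107, 20.4, 76.0 and 101 CPM in fibril-loaded and 60.5, 70.5, 54.4 and 40.7 CPM in untreated neurons alone. It rose by 1.47 ± 0.32 on the log2 scale (adjusted p = 0.0138). The cultures overlapped only in replicate 1 of the fibril-loaded co-cultures, which lay below replicates 1 and 4 of fibril-loaded neurons alone. Cenpe, a kinetochore motor, had a log2 change of 2.01 ± 0.65, and Cenpa, the centromeric histone, of 1.65 ± 0.70 (adjusted p = 0.114 and 0.230).

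The checkpoint kinases Bub1 and Bub1b, which hold cells in mitosis until chromosomes are attached, were low. Bub1 ranged from 0 to 27.1 CPM in co-cultures (median 20.8) and from 0 to 19.4 CPM in neurons alone (median 2.11). Bub1b ranged from 2.78 to 40.3 CPM in co-cultures (median 14.6) and from 0 to 6.02 CPM in neurons alone (median 1.39). Their log2 changes of 2.57 ± 1.14 and 3.06 ± 1.16 were among the largest fitted and did not pass (adjusted p = 0.259 and 0.178), with wide standard errors.

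The chromosomal passenger gene Birc5, which encodes survivin, had 21.4, 44.8, 51.7 and 35.0 CPM in fibril-loaded and 72.2, 77.6, 56.6 and 34.8 CPM in untreated co-cultures, against 13.4, 12.5, 3.01 and 3.93 CPM in fibril-loaded and 46.7, 18.1, 4.63 and 20.2 CPM in untreated neurons alone. It rose by 1.82 ± 0.49 on the log2 scale (adjusted p = 0.0479). Replicate 1 of untreated neurons alone lay among the co-cultures. The Birc5 call held without replicate 1 of the fibril-loaded co-cultures, replicate 1 or 2 of fibril-loaded neurons alone or replicate 1 of untreated neurons alone, and was lost without any of the other 12 libraries (adjusted p 0.0528 to 0.102). The log2 change ran from 1.66 to 2.15 over the 16 fits that each lack 1 library. Aurkb, the kinase of the same complex, stood near 0 with a median of 1.56 CPM in co-cultures and 2.36 CPM in neurons alone, and its fitted log2 change of 0.99 ± 1.58 went against the order of these medians (adjusted p = 0.856).

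The mitotic kinases and cyclins all had positive log2 changes without passing. Cdk1 had a log2 change of 1.93 ± 0.89 (median 126 CPM in co-cultures and 24.0 CPM in neurons alone), and Plk1 of 1.62 ± 0.47 (median 61.4 CPM in co-cultures and 18 CPM in neurons alone). Ccna2, cyclin A2, had a log2 change of 2.87 ± 0.96 (median 78.1 CPM in co-cultures and 8.45 CPM in neurons alone). Ccnb1 and Ccnb2, the B cyclins, had log2 changes of 1.01 ± 0.77 and 1.55 ± 0.84, and Aurka, a kinase of the spindle poles, of 1.81 ± 1.27. The adjusted p of these 6 genes was 0.0672 to 0.575.

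The same held for the spindle and for mitotic exit. Tpx2, Nusap1, Prc1 and Tacc3, which organise spindle microtubules, had log2 changes of 1.01 to 1.75, and the kinesins Kif11 and Kif20b of 0.85 ± 0.51 and 1.29 ± 1.00. Cdc20 and Ube2c, an activator and the ubiquitin-conjugating enzyme of the anaphase-promoting complex, had log2 changes of 1.62 ± 0.46 and 1.73 ± 0.76. None of these 8 genes was called (adjusted p 0.0649 to 0.584). Cdc20, Ube2c, Prc1, Ccna2 and Ncapg, like Mcm7 and Ccnd1, share their 3′ end with another counted gene, and the counting strand is not given in the sources used here, so their reads could be split. Lcorl, at the 3′ end of Ncapg, had a log2 change of 1.41 ± 0.41 (adjusted p = 0.0735).

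**Figure D3:**
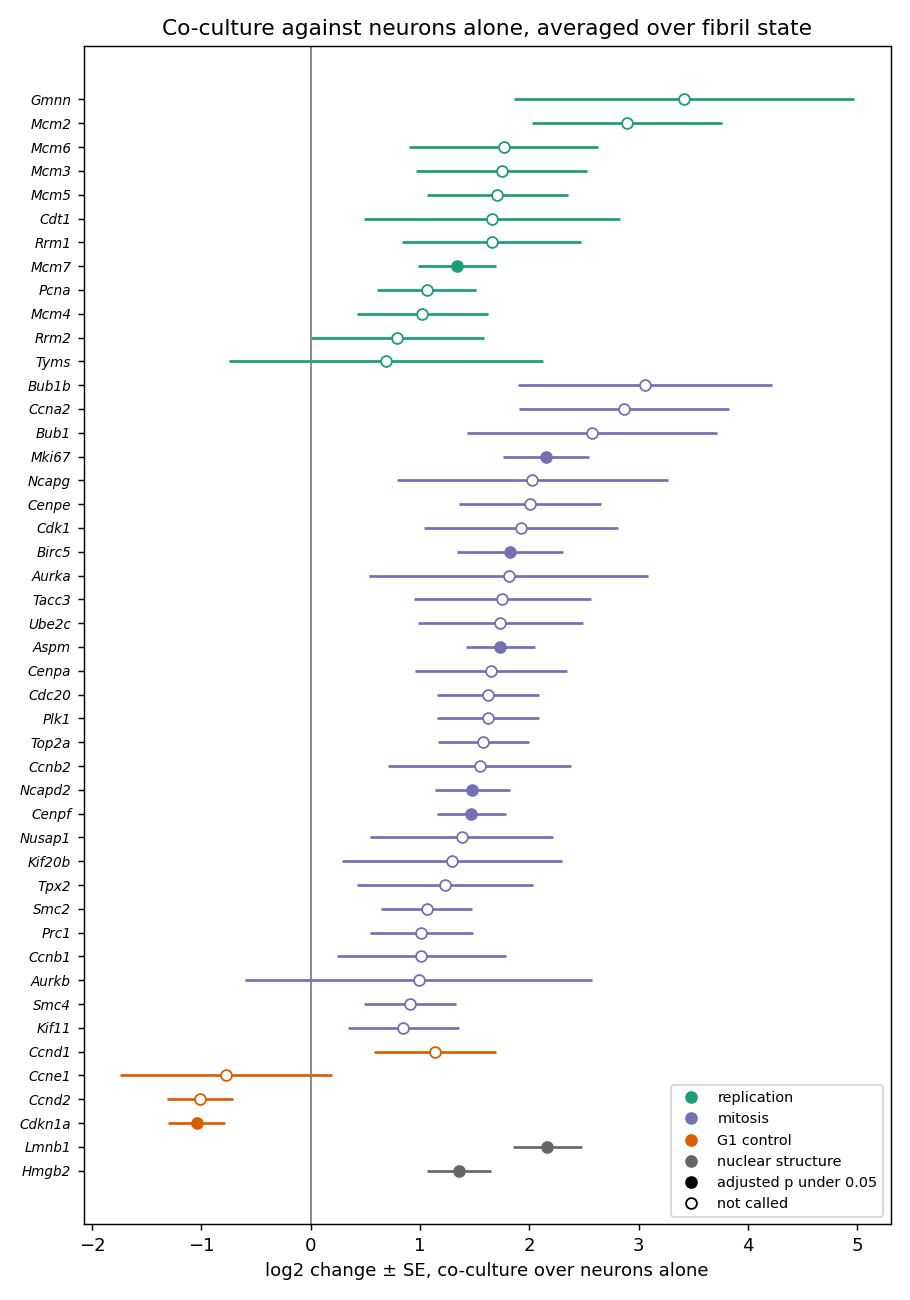
Log2 change of each of the 46 genes between co-culture and neurons alone, averaged over fibril state, with its standard error (bars; x axis in log2 units, co-culture over neurons alone; filled points, adjusted p under 0.05). Replication and mitosis genes all lie right of 0, and the G1 genes Ccne1, Ccnd2 and Cdkn1a lie left of it.

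Both nuclear structure genes rose. Lmnb1 encodes lamin B1 of the nuclear lamina, which declines in senescent cells. It had 502, 328, 489 and 577 CPM in fibril-loaded and 499, 648, 664 and 446 CPM in untreated co-cultures, against 144, 32.7, 209 and 68.6 CPM in fibril-loaded and 87.7, 167, 157 and 54.8 CPM in untreated neurons alone. It rose by 2.17 ± 0.32 on the log2 scale (adjusted p = 0.000906), with a gap between the lowest co-culture library and the highest library of neurons alone. Replicate 1 of the fibril-loaded co-cultures, low for most of the 42 genes, was not low for Lmnb1.

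Hmgb2, a chromatin protein abundant in dividing cells, had 141, 182, 340 and 267 CPM in fibril-loaded and 307, 377, 404 and 295 CPM in untreated co-cultures, against 141, 191, 95.2 and 49.0 CPM in fibril-loaded and 123, 120, 129 and 37.2 CPM in untreated neurons alone. It rose by 1.36 ± 0.29 on the log2 scale (adjusted p = 0.0141). The untreated co-cultures lay above every library of neurons alone, and replicates 1 and 2 of the fibril-loaded co-cultures did not.

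The 4 G1 genes did not move as one. Cdkn1a, which encodes the kinase inhibitor p21, had 200, 194, 337 and 250 CPM in fibril-loaded and 182, 173, 592 and 323 CPM in untreated co-cultures, against 521, 509, 655 and 666 CPM in fibril-loaded and 404, 382, 895 and 565 CPM in untreated neurons alone. It fell by 1.04 on the log2 scale (SE 0.26, adjusted p = 0.0357). Of the 8 co-culture libraries 7 lay below every library of neurons alone, the exception being replicate 3 of the untreated co-cultures. The Cdkn1a call held without replicate 3 of either co-culture group or replicate 1 or 2 of either group of neurons alone, and was lost without any of the other 10 libraries (adjusted p 0.0516 to 0.0916). It was also lost with library totals as the scaling (log2 change -0.84, adjusted p = 0.0857).

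The D cyclins, which start the cycle with Cdk4 and Cdk6, had changes of opposite sign and did not pass. Ccnd1 had 260, 3321, 2018 and 1559 CPM in fibril-loaded and 410, 1622, 754 and 1391 CPM in untreated co-cultures, against 1143, 687, 352 and 259 CPM in fibril-loaded and 1630, 424, 214 and 266 CPM in untreated neurons alone (log2 change 1.14 ± 0.55, adjusted p = 0.328). Replicate 1 was the lowest library of each co-culture group and the highest of each group alone. Ccnd2 had 563, 490, 243 and 574 CPM in fibril-loaded and 744, 652, 315 and 685 CPM in untreated co-cultures, against 1376, 1158, 1038 and 646 CPM in fibril-loaded and 2375, 844, 552 and 541 CPM in untreated neurons alone (log2 change -1.01 ± 0.30, adjusted p = 0.0823). Every co-culture library lay below the median of neurons alone for Ccnd2. Ccne1, cyclin E1, had a median of 10.5 CPM in co-cultures and 14.2 CPM in neurons alone (log2 change -0.77 ± 0.97, adjusted p = 0.791).

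**Figure D4:**
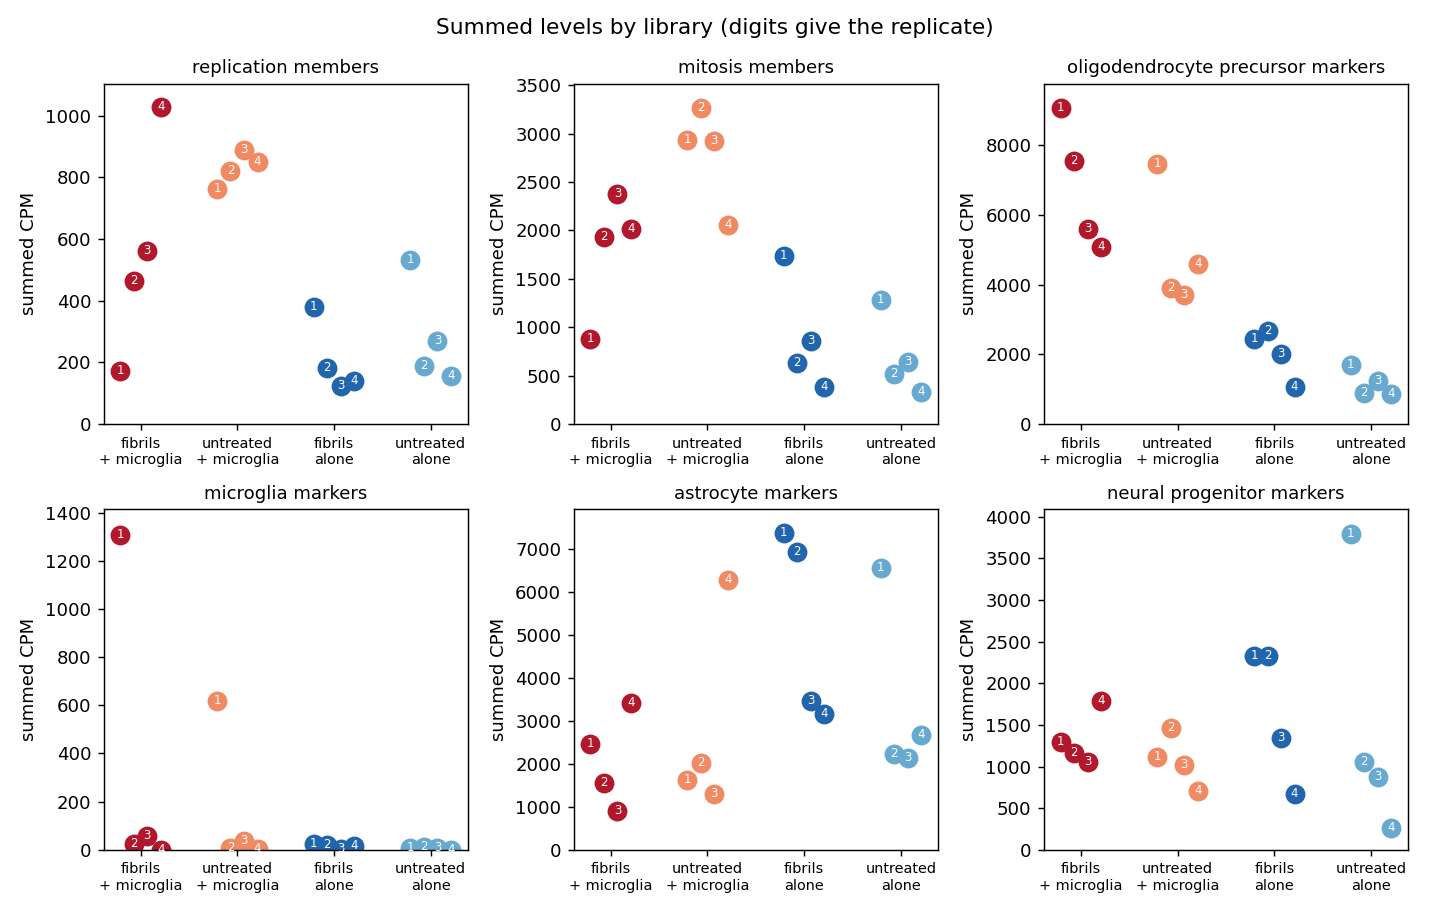
Summed CPM per library, by group, of the replication genes, the mitosis genes and the markers of 4 other cell types (points, libraries; digits, replicate number; y axes in CPM from 0). Replication and mitosis sums and oligodendrocyte precursor markers are higher in co-cultures, and replicate 1 stands apart in several panels.

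The plot of summed levels sets the genes beside markers of other cells. Replication genes summed to 556 ± 355 CPM in fibril-loaded and 830 ± 52.6 CPM in untreated co-cultures, against 206 ± 118 CPM in fibril-loaded and 286 ± 171 CPM in untreated neurons alone (SD, n = 4 each). Mitosis genes summed to 1800 ± 646 CPM in fibril-loaded and 2795 ± 517 CPM in untreated co-cultures, against 898 ± 588 CPM in fibril-loaded and 694 ± 411 CPM in untreated neurons alone (SD, n = 4 each). Markers of oligodendrocyte precursors were also higher in co-culture: all 9 of 9 were called, among them Pdgfra (log2 change 2.67 ± 0.28, adjusted p = 3.27e-05) and Cspg4 (2.07 ± 0.32, adjusted p = 0.00126). These markers summed to 6823 ± 1835 CPM in fibril-loaded and 4911 ± 1730 CPM in untreated co-cultures, against 2047 ± 717 CPM in fibril-loaded and 1177 ± 388 CPM in untreated neurons alone (SD, n = 4 each). Within the co-cultures the order of this sum was the reverse of that of the mitosis genes, with the higher mean in the fibril-loaded group. The sum differed mostly through Gpr17 (1436 CPM in fibril-loaded and 727 CPM in untreated co-cultures), Bcas1 (1032 and 340 CPM) and Cnp (670 and 360 CPM). None of these is confined to dividing precursors, so the sum is not a measure of such cells alone. Pdgfra had the order of the mitosis genes (297 and 441 CPM), and the other 8 of the 9 markers had a higher fitted level with fibrils. Replicate 1 of the fibril-loaded co-cultures had the highest sum of precursor markers of all libraries, 9066 CPM, and the lowest mitosis sum of its group. Their part in the result was not tested.

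Markers of other cell types gave few calls. By edgeR 0 of 8 astrocyte, 0 of 8 neural progenitor and 0 of 9 microglia markers tested were called, against 2.19% of all genes. At an unadjusted p under 0.05 in that test stood 3 (37.5%), 4 (50%) and 7 (77.8%) of them, against 16.5% of all genes. DESeq2 called 1, 3 and 3 of them and limma-voom 1, 3 and 0, against 8.33% and 4.96% of all genes. Most DESeq2 calls were false on data simulated for this comparison with the spread that edgeR estimated. Few genes were changed in those data, so that share does not carry over to the calls given here. By edgeR 1 of 8 neuronal markers was called lower, Tubb3 (log2 change -1.64 ± 0.35, adjusted p = 0.0132). Median log2 changes were -0.87 for astrocyte, 0.68 for progenitor, 5.25 for microglia and -1.88 for neuronal markers, and 2 of 11 microglia markers were at 0 in every library. Their part in the result was not tested.

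The sums of single libraries did not follow the microglia markers in one way. Replicate 1 of the fibril-loaded co-cultures had 1308 CPM of microglia markers and the lowest sums of that group, with 172 CPM for replication and 875 CPM for mitosis genes, against 464 to 1027 CPM and 1936 to 2376 CPM in its other 3 libraries. It also had the lowest total count of all libraries (6511516). Replicate 1 of the untreated co-cultures had 618 CPM of microglia markers and 2930 CPM of mitosis genes, inside the range of its group. Replicate 1 of fibril-loaded neurons alone had 378 CPM of replication and 1731 CPM of mitosis genes, against 123 to 181 CPM and 380 to 855 CPM in the other 3. It also had the most microglia markers of its group (25.4 CPM, against 3.97 to 19.5 CPM) and the highest astrocyte marker sum of all libraries. Replicate 1 of untreated neurons alone had 1281 CPM of mitosis genes, against 335 to 638 CPM in the other 3, and the highest progenitor marker sum.

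Without both microglia-rich libraries 5 of the 46 genes were called (10.9%, against 1.12% of all genes), namely Lmnb1, Mki67, Aspm, Cenpf and Hmgb2. The other 4 kept log2 changes of 1.49 for Mcm7, 1.88 for Birc5, 1.27 for Ncapd2 and -0.90 for Cdkn1a (adjusted p 0.0606 to 0.119), and Mcm7, Birc5 and Cdkn1a were also lost without any of several other single libraries. Without replicate 1 of fibril-loaded neurons alone 15 of the 46 genes were called (32.6%), against 294 of all genes (2.16%).

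Genes of the same pathways outside the 46 mostly had positive log2 changes, with few calls by edgeR and more by the other tools. Of 50 other replication genes (origin recognition, the GINS and polymerase subunits, histone chaperones) 47 were tested, with a median log2 change of 1.17. Of these 45 were higher and 1 was called (2.19% of all genes were). DESeq2 called 4 and limma-voom 6 of these, against 8.33% and 4.96% of all genes. The edgeR and DESeq2 calls were near the shares of all genes. In edgeR 9 had an unadjusted p under 0.05 (19.1%, against 16.5% of all genes). The called gene was Nasp, a chaperone of histone H3 and H4, at 175 ± 22.6 CPM in fibril-loaded and 156 ± 44.5 CPM in untreated co-cultures, against 70.4 ± 36.9 CPM in fibril-loaded and 74.2 ± 38.2 CPM in untreated neurons alone (SD, n = 4 each). It rose by 1.20 ± 0.28 on the log2 scale (adjusted p = 0.0262).

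Of 58 other mitosis genes 55 were higher and 3 were called (2.19% of all genes were), with a median log2 change of 1.5. DESeq2 called 6 and limma-voom 16 of them, against 8.33% and 4.96% of all genes, and 14 had an unadjusted p under 0.05 in edgeR (24.1%). Cdca8, the passenger subunit borealin, rose by 2.02 ± 0.49 (adjusted p = 0.0309), at 61.8 ± 26.8 CPM in fibril-loaded and 82.6 ± 49.2 CPM in untreated co-cultures, against 20.1 ± 15.3 CPM in fibril-loaded and 15.4 ± 11.6 CPM in untreated neurons alone (SD, n = 4 each). Ndc80, of the outer kinetochore, and the kinesin Kif14 were called with 1 group of neurons alone at 0 throughout, so no fold is given. Ndc80 had 4.58 to 32.8 CPM in co-cultures and 0 to 5.20 CPM without microglia (adjusted p = 0.0330). Kif14 had 2.84 to 29.3 CPM in co-cultures and 0 to 16.1 CPM without microglia (adjusted p = 0.0287).

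The regulators above these genes gave no call by edgeR. Of 29 tested E2F, DREAM and cyclin-dependent kinase genes 22 were higher (median log2 change 0.78). Called were 0 by edgeR, 4 by DESeq2 and 1 by limma-voom, against 2.19%, 8.33% and 4.96% of all genes. An unadjusted p under 0.05 in edgeR was found for 4 (13.8%, against 16.5% of all genes). Cdk4, the partner of the D cyclins, had a log2 change of 1.32 ± 0.42 (adjusted p = 0.104), and Foxm1, an activator of mitotic genes, of 1.42 ± 0.71 (adjusted p = 0.322). Of 17 tested p53 targets other than Cdkn1a 5 were higher and 12 lower (median log2 change -0.27). Of these 0 were called by edgeR, 1 by DESeq2 and 0 by limma-voom, against the shares of all genes given above. In edgeR 2 had an unadjusted p under 0.05 (11.8%, against 16.5% of all genes). Ccng1 had a log2 change of -1.12 ± 0.34 (adjusted p = 0.0840).

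**Figure D5:**
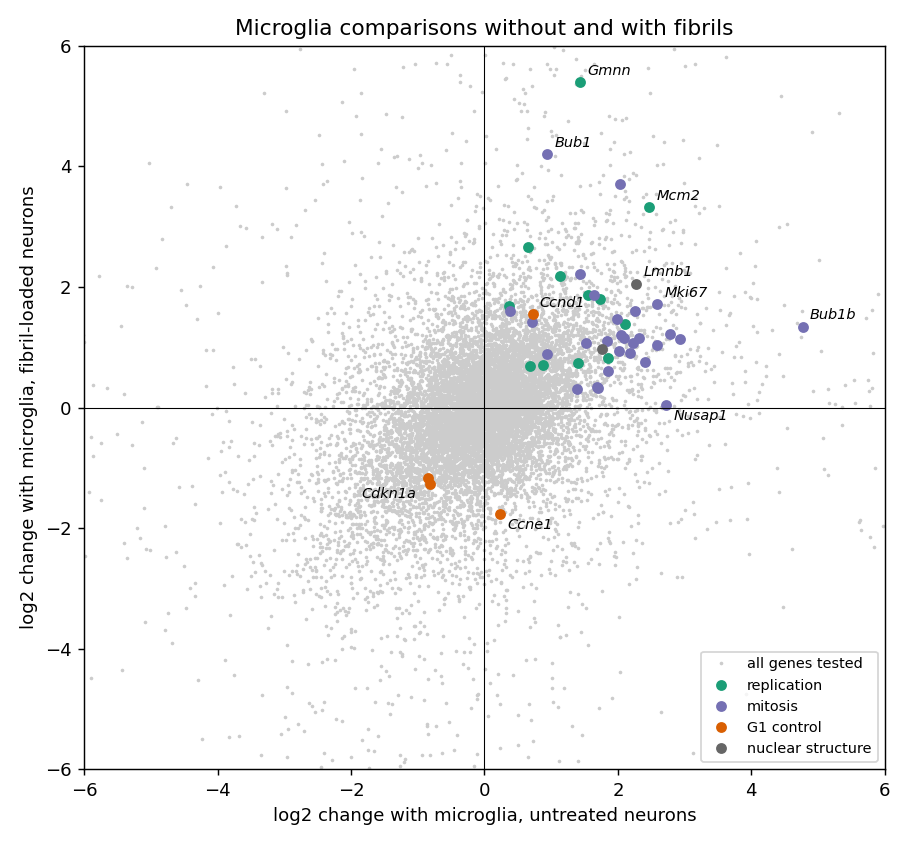
Log2 change with microglia in untreated neurons (x axis) against that in fibril-loaded neurons (y axis), for all genes tested (grey) and the 46 genes (coloured by group of function), within 6 log2 units of 0. The replication and mitosis genes all lie in the upper right, Cdkn1a and Ccnd2 in the lower left, and Ccne1 in the lower right.

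The microglia comparisons made without and with fibrils share no library, though both come from one model with a shared estimate of spread. As the scatter of both comparisons shows, 43 of the 46 genes were higher in both (93.5%), against 30.9% of all genes, and 6 had an unadjusted p under 0.05 in both (13%, against 1.53%). Those 6 were Mki67, Cenpf, Aspm, Birc5, Hmgb2 and Lmnb1. Cdkn1a was lower in both, also with an unadjusted p under 0.05 in each. In untreated neurons 2 of the 46 were called, Aspm with a log2 change of 2.31 ± 0.45 and Lmnb1 with 2.27 ± 0.45 (adjusted p = 0.0407 for both), against 0.122% of all genes. In fibril-loaded neurons 0 of the 46 were called by edgeR, against 0.114% of all genes. There 13 had an unadjusted p under 0.05 (28.3%, against 11.7% of all genes), and DESeq2 called 4 and limma-voom 1, against 492 and 41 of all genes (3.74% and 0.312%). Mki67 had a log2 change of 2.59 ± 0.56 in untreated neurons (adjusted p = 0.0704) and of 1.72 ± 0.54 in fibril-loaded neurons (adjusted p = 0.224).

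Both calls in untreated neurons lay close to the threshold, while the fitted changes held. Lmnb1 kept its call without any library of fibril-loaded neurons alone and lost it without any of the other 12 (adjusted p 0.0508 to 0.161). Aspm kept its call without those 4, without replicate 1 of the fibril-loaded or replicate 3 of the untreated co-cultures, and lost it without any of the other 10 (adjusted p 0.0508 to 0.195). Several of these libraries are fibril-loaded co-cultures, which enter this comparison only through the shared spread, the scaling and the choice of genes tested. The log2 changes ran from 2.05 to 2.51 for Lmnb1 and from 2.09 to 2.55 for Aspm over the 16 fits, and the number of the 46 genes called from 0 to 5.

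In untreated neurons the median log2 change with microglia was 1.41 for replication and 2.02 for mitosis genes. In fibril-loaded neurons it was 1.74 for replication and 1.14 for mitosis genes. The test of the difference between both microglia changes called 0 of the 46 genes (0% of all genes), with 0 at an unadjusted p under 0.05, and DESeq2 and limma-voom called 0. Its median was 0.20 for replication genes and -1.01 for mitosis genes, of which 22 of 28 had a smaller change with fibrils. With 1 library left out at a time the replication median ran from -0.28, without replicate 1 of untreated neurons alone, to 1.55, without replicate 1 of fibril-loaded neurons alone, and the mitosis median from -1.41 to -0.38 without these same libraries. Nusap1 had log2 changes with microglia of 0.04 with fibrils and 2.73 without, and Top2a of 0.76 with fibrils and 2.40 without. Gmnn and Bub1 ran the other way, with 5.40 and 4.21 with fibrils and 1.43 and 0.94 without, and both stood near 0 in fibril-loaded neurons alone.

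Fibrils gave no called change in these genes. In neurons alone 0 of the 46 were called (0% of all genes), with 3 at an unadjusted p under 0.05 (6.52%, against 6.92% of all genes). In co-culture 0 were called (0%), with 0 at that p (3.68% of all genes), and averaged over culture type 0 (0%), with 4 (8.7%, against 6.62% of all genes). The shares in neurons alone and averaged are near those of all genes. DESeq2 and limma-voom also called 0 of the 46 in each of these, while over all genes DESeq2 called 173, 130 and 257. In neurons alone 1 of 12 replication genes and 19 of 28 mitosis genes were higher with fibrils, with median log2 changes of -0.73 and 0.45. In co-culture 4 of the 46 were higher with fibrils, and the medians were -0.53 and -0.64. Without replicate 1 of fibril-loaded neurons alone, the library highest for 30 of 42 genes, these medians in neurons alone were -1.57 for replication and -0.06 for mitosis genes.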

How the data were processed

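Messenger RNA 3′ ends were measured in 16 libraries, 4 per group. The submitters' processing notes name STAR, Partek, DESeq2 and mm10 without versions. How genes were counted, on which strand and by which annotation, is not given in the sources used here. One table deposited by the authors holds raw counts for each gene symbol. The other holds a score per gene, by its values the raw count after division by 1 constant for each library, which the authors rounded to whole numbers.

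Counts were fitted in R 4.3.3 with edgeR 4.0.16 (filterByExpr, minimum count 10 and total 15, 13139 genes kept; TMM; robust quasi-likelihood, 1 mean per group over all 16 libraries) in 7 contrasts, with calls where the Benjamini-Hochberg adjusted p over all genes tested was under 0.05. CPM use the TMM scaling. Standard errors are the log2 change divided by the root of F. Alternatives were DESeq2 1.42.0, limma-voom and limma 3.58.1 on log2 of the deposited normalized values plus 1, other scalings, no filter, a replicate block, fewer groups and fewer libraries. Fits with fewer libraries were filtered and scaled anew. With 1 library left out, 13554 to 13692 genes were tested, so adjusted p-values also shift with the number of genes. The tests were tested on data simulated for the microglia comparison averaged over fibril state. Few calls of edgeR and limma-voom were false there, while most of DESeq2's were, so DESeq2 counts were the least reliable of the 3 in that setting. The simulated counts used the spread estimated by edgeR and few changed genes, so the setting was not neutral between the tools. There edgeR also missed most changes short of the largest simulated, and many of the largest. A gene not called may therefore still differ, even by a large fold. The lists and members, and the averaged contrasts, were chosen with earlier results of these data known. All 46 members are named. Gene positions follow GENCODE M21 and promoters RefSeq, both on GRCm38, the assembly of mm10. No library repeated another of its group, as their counts differed by a chi-square of 69.3 to 263 per degree of freedom. Total counts limit each value only in part, since members near 0 rest on few reads, and reads copied by PCR are not independent molecules.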

Additional observations from a re-analysis of the deposited data

Results flagged for a closer look

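In 6 of 72 values tested within a group of 4 libraries, 1 library stood apart. Its gap to the nearest of the other 3, as a share of the group's range, was above Dixon's 95% limit for 4 samples. Chance alone gives about 1 in 20 for independent, normally distributed values. These values are not independent, since genes share libraries and the summed G1 genes hold Ccnd1 and Ccnd2. In untreated co-cultures Ncapd2 was at 245 CPM in replicate 1, against 95.1 to 103 CPM in the other 3 (gap ratio 0.945), and Pcna was at 141 CPM in the same library, against 56.2 to 62.3 CPM (gap ratio 0.928). That library is one of the 2 with abundant microglia markers (618 CPM).

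In untreated neurons alone Hmgb2 was at 37.2 CPM in replicate 4, against 120 to 129 CPM in the other 3 (gap ratio 0.895). Replicate 1 of that group was highest for the cyclins Ccnd1 (1630 CPM against 214 to 424 CPM, gap ratio 0.852) and Ccnd2 (2375 CPM against 541 to 844 CPM, gap ratio 0.835), and for the summed G1 genes (gap ratio 0.906). That library also had the highest share of Rn45s, a ribosomal RNA precursor, at 26.8% of its counts, and the highest sum of neural progenitor markers, 3793 CPM. Replicate 1 had the highest Rn45s share of every other group too, at 18.5% (fibrils with microglia), 13.2% (untreated with microglia) and 21.9% (fibrils alone).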

How the results depend on the processing

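No log2 change of the called genes changed sign under any alternative run. Averaged over fibril state, Lmnb1, Mki67, Aspm, Cenpf and Hmgb2 were called in 24 of 24 alternatives, Ncapd2 in 22, Cdkn1a in 12, Mcm7 in 11 and Birc5 in 10. Counts of calls are given as all genes, then the 46. For this comparison DESeq2 called 1094 and 17, limma-voom 652 and 20, and the fit without both microglia-rich libraries 152 and 5. Leaving out 1 library gave 158 to 333 and 5 to 15, with the 5 from the fit that lacks replicate 1 of the untreated co-cultures and the 15 from the fit that lacks replicate 1 of fibril-loaded neurons alone.

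For microglia in untreated neurons DESeq2 called 295 and 9, limma-voom 76 and 5, limma on the deposited normalized values 39 and 4, library totals 50 and 6, no filter 26 over all genes, the 2 groups fitted alone 1 and 0, and the fit without both microglia-rich libraries 0 and 0. Leaving out 1 library gave 0 to 39 and 0 to 5. For microglia in fibril-loaded neurons the counts were 492 and 4, 41 and 1, 25 and 1, 31 and 1, and 26 and 1 under the first 5 of these, and 0 over all genes from the 2 groups alone. Leaving out 1 library gave 1 to 27 and 0 to 1. For fibrils DESeq2 called 257 genes averaged over culture type, 173 in neurons alone, 130 in co-culture and 187 for the interaction, and leaving out 1 library gave 0 to 1 for the average and 0 to 7 in neurons alone.

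With a replicate block 38 genes were called in untreated neurons, and 42 genes with 2 of the 46 in fibril-loaded ones. The block also ended the Mcm7 call of the averaged comparison (log2 change 1.31, adjusted p = 0.0797). The numbers name runs of neighbouring library codes, and the labels do not say whether these pair samples. Correlations of deviations had a median of 0.0434 for same-run libraries (-0.111 to 0.217, 4 of 24 above 0.1) and of -0.0126 for others (-0.226 to 0.155, 4 of 72). The main fit did not treat runs as pairs. The highest correlation, 0.217, joined replicate 1 of fibril-loaded and replicate 1 of untreated neurons alone. Whether libraries of a run share a batch cannot be told from these correlations. Library totals moved the median log2 change of all genes from -0.03 to 0.18 for the averaged comparison, and 11 of the 46 (23.9%) were then called, all higher, against 422 of all genes (3.21%). Of those 422 calls 339 were higher and 83 lower, against 160 and 128 of 288 with TMM. Genes near 0 in neurons alone, such as Gmnn, Bub1 and Aurkb, rest on few reads, with standard errors of 1.14 to 1.58. The causes of these shifts were not tested.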
